A study of Mus musculus with 6 samples.

Results

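The mitochondrial tRNAs examined here were the 9 whose genes lie on the plus strand of the mouse mitochondrial genome after mt-Nd2, in among the genes for the mRNAs. They were chosen by position, strand and the Mt_tRNA biotype of the GENCODE M21 annotation. These 9, namely mt-Tw, mt-Td, mt-Tk, mt-Tg, mt-Tr, mt-Th, mt-Ts2, mt-Tl2 and mt-Tt, were among 22 mitochondrial tRNA genes and 37 mitochondrial genes, of 47729 genes counted. All 9 had counts, 1733 in all over the 6 samples.

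The RNA came from extracellular vesicles (EVs) released by WEHI-231 cells, an established mouse B lymphoma line, over 1 h with either isotype control antibody or the anti-CD24 antibody M1/69. Either antibody was given at 10 µg/mL after being cross-linked beforehand by a secondary antibody at 5 µg/mL. All 6 samples thus received a cross-linked antibody, and none was left without antibody. The paper cites earlier work in which the isotype antibody did not bind WEHI-231 cells, and the isotype samples serve there as the unstimulated control. The study asked whether engaging CD24, a surface protein of immature B cells, changes the RNA that EVs carry, with 3 biological replicates per condition. EVs were isolated with the peptide Vn96, and libraries were made without fragmenting the RNA or depleting rRNA and were read on an IonTorrent PGM. Every isotype library carried barcode 1 and every anti-CD24 library barcode 2, so barcode and condition cannot be told apart. All samples come from 1 cell line, and more EVs and more RNA per EV cannot be told apart in these counts.

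Between 166129 and 794185 counts fell on genes per sample, and 84.8% to 91.4% of them lay on rRNA and ribozyme genes. Isotype replicate 2 was the shallowest sample, in which 3 counts amount to 18.1 CPM (the count scaled to the sample's total on all genes), against 3.78 in the deepest. The B cell markers had only 51 counts in all, so the RNA gave little to check the labelled cell type against. None of the 4 T cell markers had a count, and 3 myeloid markers had 8 in all, each of them in anti-CD24 samples. The haemoglobin genes had 99 counts, all in anti-CD24 replicate 1, and the part of this in that sample's tRNA values was not tested.

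The heavy strand of mitochondrial DNA is transcribed as 1 long precursor in which tRNAs stand between the rRNAs and mRNAs. The tRNAs are cut out at both ends by RNase P and RNase Z, which at the same time frees the neighbouring mRNAs and rRNAs, an arrangement known as tRNA punctuation. A group of 5 heavy-strand tRNAs lies before mt-Nd2 and is called here the tRNAs near the rRNAs. Of these, mt-Ti and mt-Tm lie between the mRNA genes mt-Nd1 and mt-Nd2. A further 8 tRNAs are read from the light strand. A mature tRNA carries its amino acid to the mitochondrial ribosome, pairing with the codon through the anticodon.

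The sequences below, from the GENCODE M21 transcripts on GRCm38, show the 3 most counted of the 9 tRNAs, the most AT-rich, and the pair that share bases with the gene before them. The anticodon is in capitals, and the CCA added after transcription is not encoded. They are mt-Ts2 (chrM:11613-11671), mt-Tg (chrM:9391-9458), mt-Th (chrM:11546-11612), mt-Td (chrM:6942-7011), mt-Tw (chrM:4950-5016) and mt-Tl2 (chrM:11671-11741), all on the plus strand.
mt-Ts2: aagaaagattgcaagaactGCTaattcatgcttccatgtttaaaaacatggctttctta
mt-Tg: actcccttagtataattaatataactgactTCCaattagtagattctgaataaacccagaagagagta
mt-Th: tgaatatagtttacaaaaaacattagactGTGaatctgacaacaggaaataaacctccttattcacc
mt-Td: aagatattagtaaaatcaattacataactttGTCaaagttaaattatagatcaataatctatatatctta
mt-Tw: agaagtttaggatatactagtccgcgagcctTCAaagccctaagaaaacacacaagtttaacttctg
mt-Tl2: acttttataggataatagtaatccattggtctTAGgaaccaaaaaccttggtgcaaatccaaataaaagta

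The 9 genes were 59 to 71 bases long. The shortest was mt-Ts2, which reads AGY serine codons and is known to lack the D arm of other tRNAs. GC content ran from 17.1% in mt-Td, which serves aspartate, to 40.3% in mt-Tw, which serves tryptophan, with a median of 31.3%. The median was 39.1% in the 5 tRNAs near the rRNAs and 35.6% in the light-strand tRNAs. The longest run of 1 base was 8 A in mt-Tr, the arginine tRNA, and the next was 6 A in mt-Th, the histidine tRNA. IonTorrent sequencing is known to miscount such runs, and whether this lowered the counts of mt-Tr was not tested. The remaining genes were mt-Tk (chrM:7700-7764), for lysine, mt-Tr (chrM:9808-9875) and mt-Tt (chrM:15289-15355), for threonine.

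The counts differed widely among the 9 tRNAs. In the order isotype replicates 1, 2 and 3 and then anti-CD24 replicates 1, 2 and 3, mt-Ts2 had 41, 10, 22, 52, 500 and 71 counts. The glycine tRNA mt-Tg had 31, 11, 19, 46, 214 and 74 counts, and mt-Th had 22, 23, 13, 25, 160 and 86 counts in that order. These 3 genes were counted in all 6 samples and together made up 1420 of the 1733 counts. The aspartate tRNA mt-Td had 20, 3, 3, 6, 78 and 13 counts. The lysine tRNA mt-Tk had 3, 4, 0, 0, 48 and 15 counts, and mt-Tr had 3, 5, 6, 4, 28 and 19. The threonine tRNA mt-Tt had 2, 3, 1, 5, 15 and 7 counts. The last 4 of these genes rested on 3 counts or fewer in 1 or more samples, so their levels in single samples are imprecise. The tryptophan tRNA mt-Tw, with 0, 3, 1, 0, 4 and 4 counts, and the CUN leucine tRNA mt-Tl2, with 0, 1, 0, 0, 7 and 2, had 7 or fewer in every sample.

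**Figure D1:**
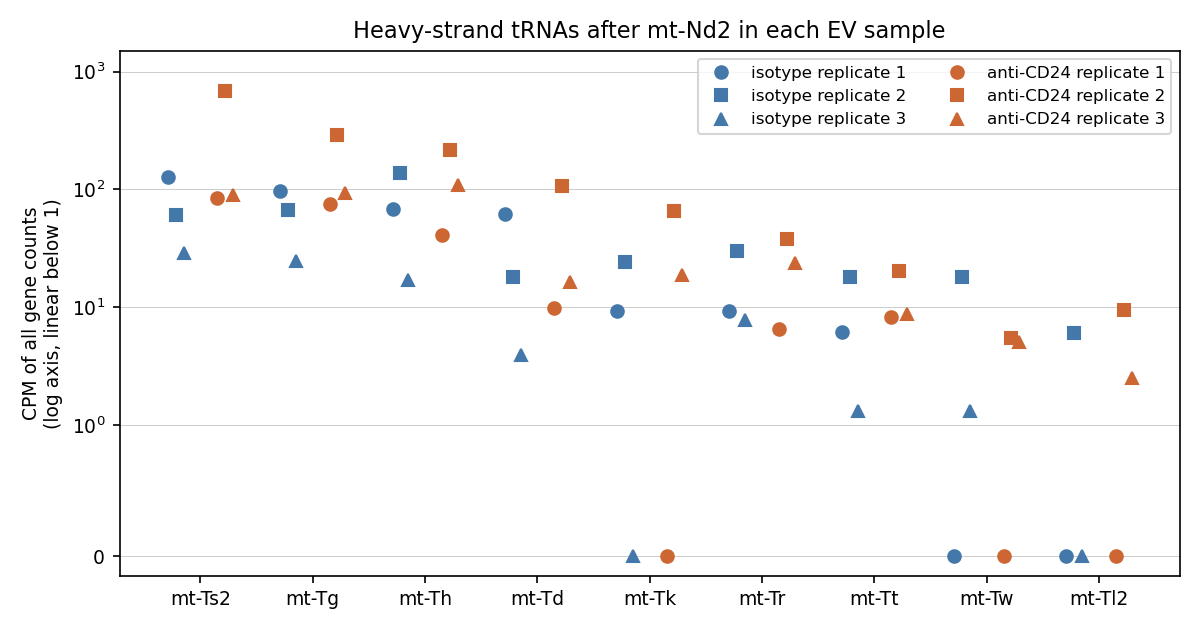
CPM of each of the 9 tRNAs (x axis, ordered by level per length) in the 3 isotype samples (blue) and 3 anti-CD24 samples (orange), on an axis that is logarithmic above 1 CPM. The orange square, anti-CD24 replicate 2, is the highest point for 8 of the 9 tRNAs, and the 2 groups overlap for all 9.

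Compared per length, as CPM per kilobase over the 6 samples, mt-Ts2 was the highest at 3022 ± 4194 (SD, n = 6) and mt-Tl2 the lowest at 42.4 ± 55.9, a ratio of means of 71.3. Between them came mt-Tg at 1584 ± 1370, mt-Th at 1468 ± 1090 and mt-Td at 515 ± 571 CPM per kilobase. The order went on with mt-Tk at 301 ± 375, mt-Tr at 284 ± 195, mt-Tt at 157 ± 109 and mt-Tw at 74.2 ± 102 CPM per kilobase. Only 2 steps between neighbours in this order were seen in all 6 samples, from mt-Ts2 to mt-Tg and from mt-Th to mt-Td, and mt-Ts2 was above mt-Th in only 4 of 6. At every other step the lower-ranked gene was the higher or tied in at least 1 sample, and mt-Tk, although ranked above mt-Tr, was above it in only 2 of 6. By plain counts mt-Ts2 was below mt-Tg in isotype replicate 2, with 10 against 11, and in anti-CD24 replicate 3, with 71 against 74. The values rest in large part on anti-CD24 replicate 2, and without it, an alternative chosen after seeing the data, mt-Ts2 had 1325 ± 619 CPM per kilobase (SD, n = 5), mt-Th 1113 ± 735 and mt-Tg 1046 ± 422. In those 5 samples mt-Th thus ranked above mt-Tg and mt-Tr above mt-Tk, and the ratio of mt-Ts2 to mt-Tl2 was 55.1. The means of neighbours in the order over 6 samples differed by less than the larger of their SDs over samples.

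The order of the counted levels did not follow the number of codons each tRNA serves in the 13 mitochondrial mRNAs. The tRNA with the most counts, mt-Ts2, reads 49 of the 3800 codons, the fewest of the 9. The tRNA with the fewest counts, mt-Tl2, reads 444 codons, the most. These genes share 1 base, and full-length reads of either could not be assigned under the counting rule given below, so their counts may not stand for their abundance. For the other genes, whether counts stand for abundance was not tested either. The genes that share no base, mt-Tg, mt-Th, mt-Td, mt-Tk, mt-Tr and mt-Tt, had 395, 329, 123, 70, 65 and 33 counts. They read 212, 97, 74, 103, 64 and 308 codons in that order. As a share of the counts on the 9 genes, mt-Ts2 took 32.1% ± 10.9 (SD, n = 6), mt-Tg 25.2% ± 5.8 and mt-Th 22.9% ± 8.3.

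Among all 22 mitochondrial tRNAs, mt-Ts2, mt-Tg and mt-Th ranked 8, 9 and 10 by CPM per kilobase. The other 6 ranked from 16 to 22, and mt-Tt, mt-Tw and mt-Tl2 took the last 3 places. The methionine tRNA mt-Tm, of the group near the rRNAs, was the highest at 94098 ± 73566 CPM per kilobase. Its gene lies not beside an rRNA gene but directly before mt-Nd2.

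On the heavy strand the 9 tRNAs stood at different heights per length relative to the genes they border. The RNA was not fragmented, so the number of reads need not scale with gene length, and plain counts are given where they turn a direction. The glycine tRNA mt-Tg, which abuts mt-Co3 with no base between, was above it in 6 of 6 samples, with a ratio of mean CPM per kilobase of 7.92, but below it in 6 of 6 by plain counts, with 395 counts against 537 over all samples. The histidine tRNA mt-Th was above mt-Nd4, which ends 1 base before it, in 6 of 6 samples per length, with a ratio of means of 16.2, and below it in 6 of 6 by plain counts, with 329 against 436. Both tRNAs thus lay above or below the mRNA before them depending on the scaling. The opposite was seen for mt-Tk, which was below mt-Atp8 in 6 of 6 samples, with 3279 ± 2466 CPM per kilobase on mt-Atp8, and for mt-Tl2, which was below mt-Nd5 in 6 of 6. Between these, mt-Td was above mt-Co1 and above mt-Co2 in 2 of 6 samples each, and mt-Tt was above mt-Cytb in 3 of 6. By plain counts mt-Td and mt-Tt were below these mRNAs in 6 of 6 samples. The tRNA mt-Tr was above mt-Nd3 in 6 of 6 samples, by plain counts as well as per length, and above mt-Nd4l in 1 of 6 per length and 0 of 6 by counts. The mt-Nd3 level of 25.8 ± 21.7 CPM per kilobase is uncertain, because the pseudogene Gm28438 carries a 99.7% identical copy and had 19 to 102 counts per sample. The levels of mt-Co3 and mt-Co1 are uncertain as well. Gm28437 carries a 100% identical copy of mt-Co3 over 783 bases, with 33 to 229 counts per sample. Gm29216 carries a 99.8% identical stretch of 483 bases of mt-Co1, with 41 to 262. Pseudogene copies of the other bordering mRNAs were not searched. The end of mt-Atp8 also overlaps the start of mt-Atp6, so under the counting rule given below some of its reads could not be assigned.

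**Figure D2:**
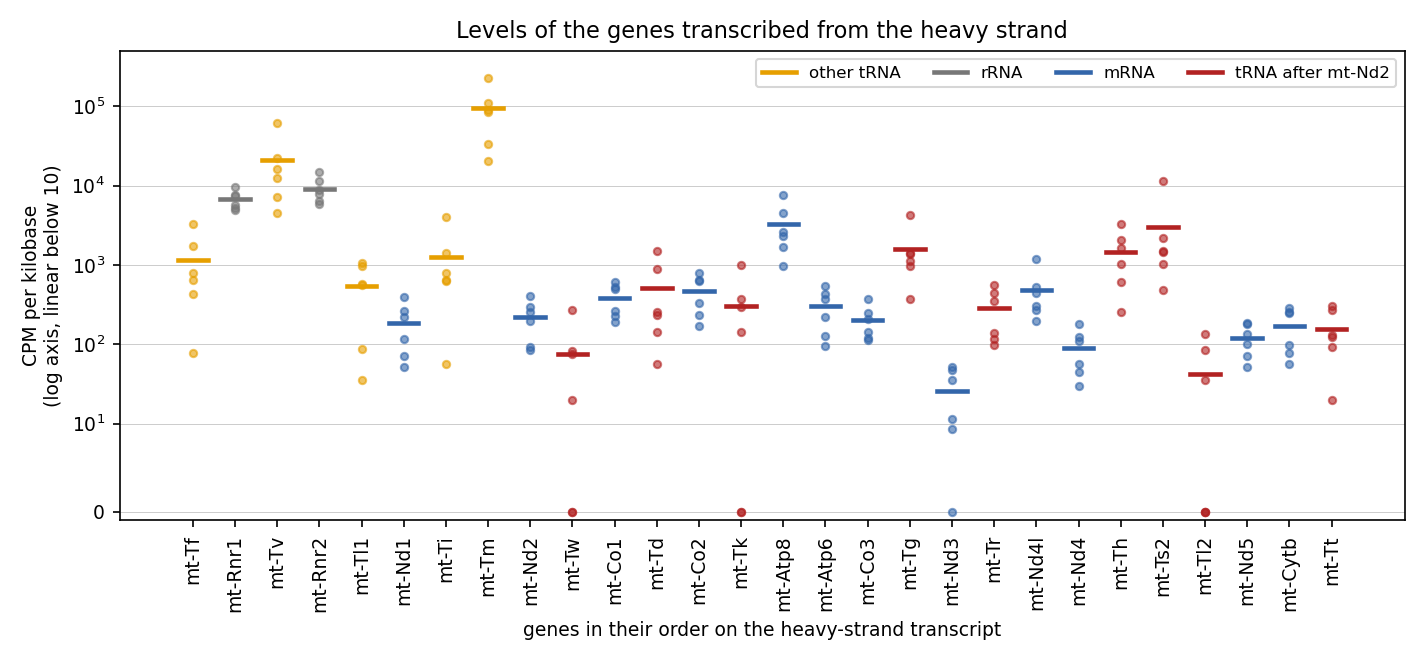
CPM per kilobase (logarithmic above 10) of the genes transcribed from the heavy strand, in genome order, with a point for each of the 6 samples and a bar at their mean. The 9 tRNAs after mt-Nd2 (red) run from 42.4 for mt-Tl2 to 3022 for mt-Ts2, while mt-Tm, directly before mt-Nd2 (orange), reaches 94098.

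The counting rule bears directly on the lowest members. The authors counted reads in union mode, in which a read touching the exons of 2 genes is set aside as ambiguous. The first 2 bases of mt-Tw also belong to mt-Nd2, and the first base of mt-Tl2 is also the last of mt-Ts2, so a full-length read of mt-Tw, mt-Tl2 or mt-Ts2 could not be assigned to it. Per sample, 2743 to 21834 reads were set aside for all genes together, with no gene given. The 2 genes with the lowest levels, mt-Tw and mt-Tl2, were thus among the 3 with a shared base, but mt-Ts2, with the highest level, was the other one. How many reads of each were lost in this way was not tested.

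Similar transcripts elsewhere in the annotation were few. Only mt-Tt matched another annotated transcript over at least 30 bases at 90% identity or more, namely the processed pseudogene Gm43841, over 36 bases at 97.2%, and that gene had 0 counts in all samples. Copies of mitochondrial DNA in the nuclear genome outside annotated transcripts were not searched. The genes on both sides of mt-Tg, mt-Co3 and mt-Nd3, have the near-identical pseudogenes named above, and whether mt-Tg has such a copy was not tested.

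Taken as a sum, the 9 tRNAs had 122, 63 and 65 counts in isotype replicates 1, 2 and 3 and 138, 1054 and 291 counts in anti-CD24 replicates 1, 2 and 3. This was 378, 379 and 85.1 CPM in the isotype samples, with 95% Wilson intervals of 317 to 452, 296 to 485 and 66.8 to 108. In the anti-CD24 samples it was 226, 1431 and 366 CPM, with intervals of 191 to 267, 1347 to 1520 and 327 to 411. These intervals cover counting error only. Isotype replicates 1 and 2 were nearly equal, isotype replicate 3 stood below every other sample, and anti-CD24 replicate 2 stood above every other sample. The mean was 281 ± 170 CPM (SD, n = 3) with isotype and 675 ± 659 CPM (n = 3) with anti-CD24, and the 2 groups overlapped. Libraries with the same replicate number shared a sequencing run, and within runs 1, 2 and 3 the ratio of anti-CD24 to isotype was 0.598, 3.77 and 4.31. Without anti-CD24 replicate 2, the log2 ratio of the group means was 0.08 in place of 1.26.

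The other mitochondrial tRNAs had their highest and lowest levels in the same samples as the 9. The 5 tRNAs near the rRNAs summed to 7543, 8638 and 1734 CPM with isotype and 2866, 20488 and 7512 CPM with anti-CD24. The 8 light-strand tRNAs summed to 1976, 1132 and 469 CPM with isotype and 909, 5922 and 1001 CPM with anti-CD24. Both groups were highest in anti-CD24 replicate 2 and lowest in isotype replicate 3. The 13 mRNAs ranged from 1278 to 4876 CPM and peaked in isotype replicate 2 instead. Per base, the 9 tRNAs stood at 0.0330 ± 0.0082 (SD, n = 6) of the tRNAs near the rRNAs and at 0.238 ± 0.068 of the light-strand tRNAs. The first ratio rests mostly on mt-Tm and mt-Tv, with 21855 and 5405 counts over the 6 samples. The rest of that group, mt-Ti, mt-Tf and mt-Tl1, had 310, 304 and 120 counts. Per length these ranked below mt-Ts2, mt-Tg and mt-Th and above the other 6 of the 9. Relative to the 13 mRNAs the 9 tRNAs stood at 2.79 ± 1.74 per base, and above 1 in all 6 samples, but below the mRNAs in summed CPM in all 6.

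**Figure D3:**
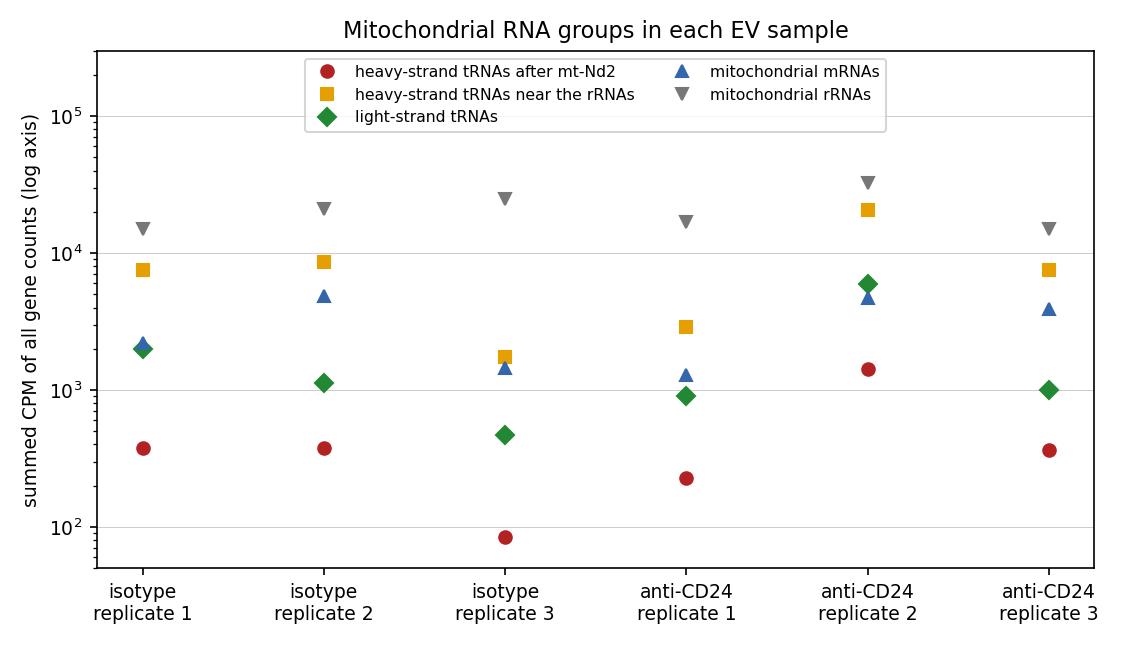
Summed CPM (log axis) of the 9 tRNAs after mt-Nd2 (red circles) and of the other mitochondrial RNA groups in each of the 6 EV samples. The 9 tRNAs are the lowest group in every sample, between 85.1 and 1431 CPM, and share their highest and lowest sample with the other tRNAs.

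The share of the mitochondrial tRNA counts that fell on the 9 genes does not depend on the rRNA counts and was steadier than their level. It was 3.82%, 3.74% and 3.72% in isotype replicates 1, 2 and 3, with 95% Wilson intervals of 3.21% to 4.55%, 2.93% to 4.75% and 2.93% to 4.71%. In anti-CD24 replicates 1, 2 and 3 it was 5.65%, 5.14% and 4.13%, with intervals of 4.80% to 6.64%, 4.85% to 5.45% and 3.69% to 4.62%. All 3 anti-CD24 samples lay above all 3 isotype samples, with means of 4.97% ± 0.78 (SD, n = 3) and 3.76% ± 0.055 (n = 3). The interval of anti-CD24 replicate 3 overlapped those of the isotype samples, and no test was made of this sum over chosen genes. Without mt-Tm, which held most of the tRNA counts, the share was 10.4%, 14.8% and 9.73% with isotype and 13.2%, 11.7% and 11.8% with anti-CD24, and the groups overlapped. Without mt-Ts2 among the 9, the groups overlapped as well, at 2.49% to 3.16% and 2.77% to 3.60%.

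**Figure D4:**
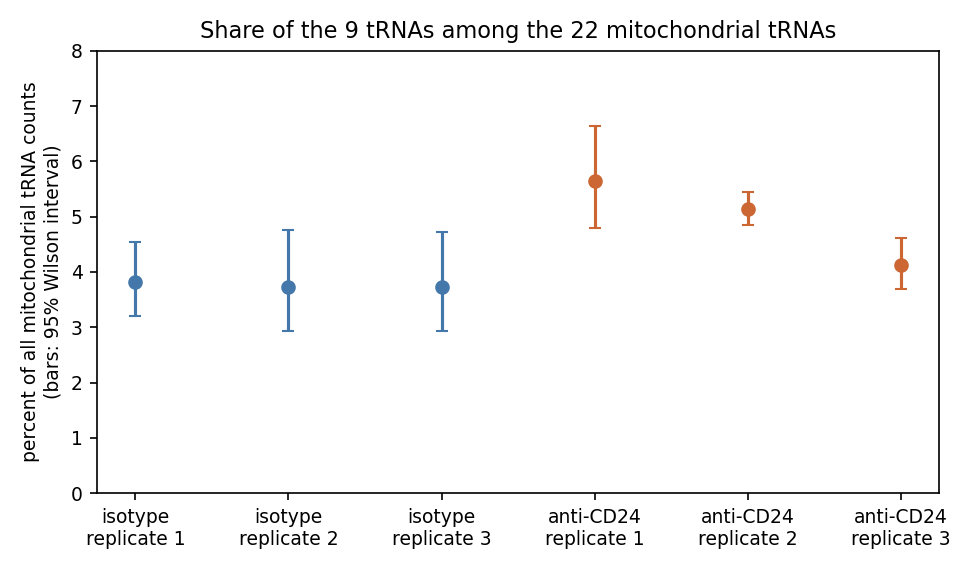
Percent of all mitochondrial tRNA counts that fell on the 9 genes in each sample (points, blue for isotype and orange for anti-CD24), with 95% Wilson intervals as bars. The anti-CD24 points lie between 4.13% and 5.65%, above the isotype points at 3.72% to 3.82%, while the interval of anti-CD24 replicate 3 reaches down to 3.69%.

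Each of the 9 tRNAs was then compared between conditions in a fit over the 1501 genes with at least 1 CPM in 3 or more samples, a filter that all 9 passed. With edgeR's quasi-likelihood test and Benjamini-Hochberg adjustment at 0.05, 1 of 1501 genes was called (0.0666%), and none of the 9 tRNAs was. At an unadjusted p under 0.05 there were 120 genes, of which mt-Ts2 was 1. With the run as a replicate block in edgeR no gene was called, with 20 at an unadjusted p under 0.05, of which 0 were among the 9. DESeq2 called none either, with 95 genes at an unadjusted p under 0.05 and none of the 9 among them. With the rRNA and ribozyme genes removed, 158 of 1419 genes had an unadjusted p under 0.05 by the edgeR test, among them 3 of the 9 (mt-Ts2, mt-Tg and mt-Tk). Without anti-CD24 replicate 1 there were 163 of 1119 genes, among them 4 of the 9. The CPM of the groups overlapped for all 9 tRNAs. Over all 1501 genes, 184 (12.3%) had groups without overlap, a share from which 9 genes are too few to be set apart.

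The serine tRNA mt-Ts2 had 127, 60.2 and 28.8 CPM with isotype and 85.2, 679 and 89.4 CPM with anti-CD24. Only anti-CD24 replicate 2 lay above the isotype range, the others lying within it. Within runs, the anti-CD24 value was below the isotype one in run 1 and above it in runs 2 and 3. The log2 fold change was 1.96 (SE 0.83), with an adjusted p of 0.54 by edgeR's quasi-likelihood test. Without anti-CD24 replicate 1, a fit in which 48 of 1119 genes were called in place of 1 of 1501, mt-Ts2 was called. Its log2 fold change there was 2.92 (SE 0.73), with an adjusted p of 0.0056 by the same edgeR test. Without anti-CD24 replicate 2, the log2 fold change was 0.54.

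The glycine tRNA mt-Tg had 96.2, 66.2 and 24.9 CPM with isotype and 75.4, 291 and 93.2 CPM with anti-CD24. Its log2 fold change was 1.50 (SE 0.85), with an adjusted p of 0.54 by the edgeR test, and 0.75 without anti-CD24 replicate 2. The histidine tRNA mt-Th had 68.2, 138 and 17.0 CPM with isotype and 41.0, 217 and 108 CPM with anti-CD24. Its log2 fold change was 1.17 (SE 0.85), with an adjusted p of 0.58 by the edgeR test, and fell to 0.54 without anti-CD24 replicate 2 and to 0.27 without isotype replicate 3. For both, anti-CD24 replicate 2 was the highest sample and isotype replicate 3 the lowest.

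The other 6 tRNAs had fewer counts and wider errors. The log2 fold change was 1.85 (SE 1.17) for mt-Tk, 1.87 (SE 1.73) for mt-Tl2 and 0.70 (SE 0.99) for mt-Td. For mt-Tr it was 1.05 (SE 1.10), for mt-Tt 1.10 (SE 1.26) and for mt-Tw 0.08 (SE 1.40). The standard error of mt-Td, mt-Tr, mt-Tt and mt-Tw was larger than the estimate itself. Without isotype replicate 3 these 6 ran from -0.91 for mt-Tw to 0.74 for mt-Tl2. The adjusted p of these 6 in the fit on all samples ran from 0.54 to 0.97 by the edgeR test.

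The 9 estimates were all above 0, with a median of 1.17, but that of mt-Tw was below 0 with DESeq2, without TMM normalization and without the filter. Over all 1501 genes the median was -0.29 and 44.7% were above 0. The median of the 9 was 0.49 with DESeq2, where that of all genes was -0.97, and 1.73 with the rRNA genes removed, where that of all genes was -0.07. Without anti-CD24 replicate 2, 8 of the 9 passed the filter, 6 were above 0 and mt-Td and mt-Tw below it, with a median of 0.54. In the fit on all samples the medians of the other groups were 1.35 for the tRNAs near the rRNAs, 1.17 for the light-strand tRNAs, 1.10 for the mRNAs and 0.25 for the 2 rRNAs, with none of these genes called. A difference between the 9 tRNAs and those groups was not tested.

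**Figure D5:**
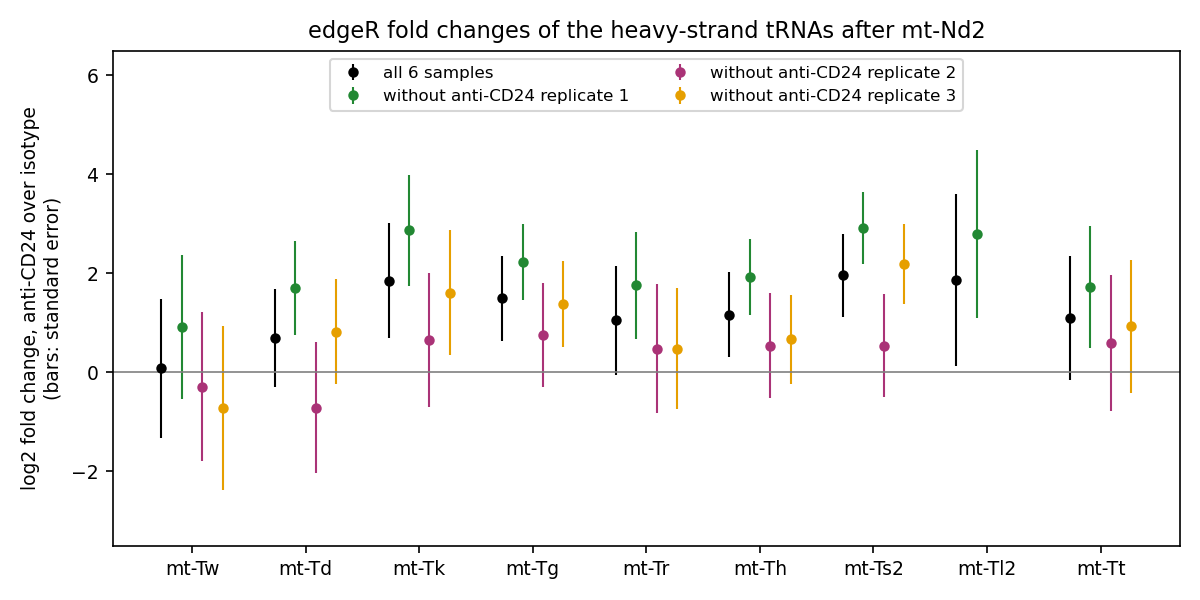
Log2 fold change of anti-CD24 over isotype (y axis, bars the standard error) for the 9 tRNAs in genome order, by edgeR on all 6 samples (black) and without each anti-CD24 replicate in turn (colours). With all samples the estimates run from 0.08 to 1.96, and without anti-CD24 replicate 2 (purple) that of mt-Ts2 falls to 0.54 and those of mt-Td and mt-Tw lie below 0. Tested genes are drawn, so mt-Tl2 is missing where it did not pass the filter.

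Outside the mitochondrial genome and the rRNA class, 57 genes had at least 10 counts in every sample, and their profiles over the 6 samples were compared with that of the 9 summed. Likeness was measured as the root mean square distance of the centred log2(CPM + 1) values, and the summed profile itself had a spread of 1.20 on this scale. The most alike was the Y RNA gene Rny1, at a distance of 0.40, with 136, 114 and 35.4 CPM with isotype and 67.2, 269 and 78.1 CPM with anti-CD24. Next was Rny3, another Y RNA, small RNAs that bind the Ro60 protein, at 0.56. The following 3 were Gm28438, Gm28437 and Gm29216, at 0.64, 0.67 and 0.72, all pseudogenes with near-identical mitochondrial copies, so their counts cannot be separated from mitochondrial ones. Within the mitochondrial genome, where 20 genes outside the 9 were deep enough, mt-Tn at 0.27, mt-Tv at 0.33 and mt-Tm at 0.35 were the most alike. All of these shared the libraries and their depths with the 9 tRNAs.

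The nuclear genes that make and use these tRNAs were nearly absent from the counts. Of 33 genes for mitochondrial tRNA processing, charging, modification, transcription and turnover, 1 passed the filter and none was called. That gene was Lars2, the leucyl-tRNA synthetase that charges mt-Tl2, with 4280 counts over the 6 samples and a log2 fold change of 0.32 (SE 0.73), adjusted p of 0.85 by the edgeR test. Whether the reads on Lars2 came from its mRNA was not tested. Of the 9 synthetase genes for the 9 tRNAs, 4 had counts, and those other than Lars2 had only 6, 2 and 1 over the 6 samples. The 5 processing genes, among them those for RNase P and RNase Z, had 2 counts in all.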

How the data were processed

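RNA from EVs of 3 isotype and 3 anti-CD24 samples was sequenced. Reads were trimmed by the authors, mapped with tmap keeping all best hits and counted per gene with htseq-count (HTSeq 0.5.4p5 in the submitters' processing notes, which also name GRCm38.p4) in stranded union mode, and the deposited values are these raw counts, not normalized. A read with several equally good places could be counted at each of them. The 5 summary lines of each file were left out of library sizes.

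The condition in the labels gave the groups. The depth was 166129 to 794185 gene counts per sample. CPM were taken over all gene counts, and CPM per kilobase were used to compare genes. Shares have 95% Wilson intervals and a floor of 3 counts. Differences were tested over all genes with edgeR 4.0.16 in R 4.3.3 (quasi-likelihood, TMM, at least 1 CPM in 3 or more samples, condition as the only factor, Benjamini-Hochberg at 0.05), and standard errors were computed as |log2 fold change| divided by the square root of F. The fit was tested on simulated data. Replicate numbers were taken as pairs because the run names place both conditions of 1 number in 1 run. The correlations of the paired deviations from the group means were -0.030, -0.024 and -0.11. Symbols, positions and sequences came from GENCODE M21 (GRCm38), and similar transcripts were searched with BLAST+ 2.17.0. Other steps used Python 3.11.15.

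The text names the 9 tRNAs, the genes bordering them, other mitochondrial genes they are compared with, the 5 genes with the most alike profile, and genes of a tRNA pathway list with at least 10 counts. The members and lists were chosen with earlier results of these data known. The alternatives tried were edgeR's exact test, DESeq2 1.42.0, the replicate block, other normalizations, filters and denominators, and each sample left out in turn.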

Additional observations from a re-analysis of the deposited data

How the results depend on the processing

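None of the 9 tRNAs was called under DESeq2, edgeR's exact test, the replicate block, either normalization or either filter, and 0 to 1 was called when 1 sample was left out. The genes called numbered 1 with all samples, 0 with DESeq2, 0 with the replicate block, 0 among genes with at least 10 counts in every sample, 2 without a filter, and 0 to 48 when 1 sample was left out. The replicate block, with runs as pairs, changed no other call. Of 57 log2 fold changes of the tRNAs under other settings, 53 kept their direction and side of the threshold and 4 reversed, namely mt-Tw at -0.73 with DESeq2, -0.42 without TMM and -0.042 without a filter, and mt-Th at -0.10 with at least 10 counts in every sample, where 134 genes were tested. Of 51 with 1 sample left out, 44 kept both, 1 passed the threshold and 6 reversed, with mt-Tw between -0.91 and 1.58 and mt-Td between -0.71 and 2.59. For the other 7 the range with 1 sample left out was 0.54 to 3.04 for mt-Ts2, 0.75 to 2.24 for mt-Tg, 0.27 to 1.93 for mt-Th, 0.65 to 2.88 for mt-Tk, 0.74 to 2.79 for mt-Tl2, 0.35 to 1.76 for mt-Tr and 0.11 to 1.73 for mt-Tt. The cause was not tested. Leaving out a sample in the fit rests on a pooled spread from 5 samples.

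The summed level of the 9 tRNAs, 478 ± 481 CPM over 6 samples, became 4080 ± 2911 when scaled to the counts on genes of other classes than rRNA and ribozymes and 12151 ± 6218 when scaled to the mitochondrial counts, by construction of the denominators. The log2 ratio of the group means, 1.26 on all gene counts, was 0.69 and 0.73 with these denominators in turn. The ratio of anti-CD24 to isotype in runs 1, 2 and 3 was 0.486, 2.33 and 3.79 with the first and 0.732, 2.10 and 4.45 with the second. With TMM-scaled library sizes, chosen after seeing the data, it was 0.605, 3.73 and 7.29, and the log2 ratio of the group means was 1.45. The share of the mitochondrial tRNA counts on the 9 tRNAs, 4.37% ± 0.83, was 2.96% without mt-Ts2 and 11.9% without mt-Tm, the latter chosen after seeing the data. At this depth a count of 3 or fewer, as in most samples for mt-Tw and mt-Tl2, sets no level.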
